A study of Mus musculus with 9 samples.

Results

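Mreg, Zbtb46, Fam129a and Chpf2 were 4 genes of the 49671 in the count table of mouse T cells, chosen because their levels were alike in unstimulated and stimulated cells and about 4-fold or more higher in cells stimulated with the inhibitor IMD-0354. The differences between the groups were therefore the criterion of choice, and the values of the 4 genes are given as a description with no test. All 4 passed the filter on low counts, as did 18374 genes in all. CD3+ T cells were enriched on columns from spleens of female F1 mus x cast mice, whose C57BL/6 mothers carried a heterozygous Xist deletion and whose fathers were castaneus, a cross in which X inactivation is skewed. Inhibitor cells received anti-CD3 bound to the plate (1 µg/ml), anti-CD28 in solution (10 µg/ml) and IMD-0354 (2.5 µM) during 48 hours of culture. Stimulated cells had the same culture without IMD-0354, and unstimulated cells went into TRIzol directly (n = 3 libraries in each of the 3 groups). No vehicle control and no unstimulated culture are named in the labels, so culture and stimulation cannot be told apart. All groups share the cross and, as far as the labels say, the skewed X inactivation.

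IMD-0354 inhibits IKK-beta, the kinase that releases NF-kB, a family of transcription factors switched on by signals from the T cell receptor and CD28. Melanoregulin, the product of Mreg and of the mouse dilute suppressor locus, binds to membranes of melanosomes and lysosomes and takes part in their transport along microtubules. Zbtb46 encodes a transcriptional repressor of the BTB zinc finger family that marks classical dendritic cells and is also expressed in endothelium. Fam129a, now named Niban1, encodes Niban, a cytosolic protein linked to cellular stress whose human counterpart is induced through ATF4. Chpf2 encodes chondroitin polymerizing factor 2, a Golgi protein that takes part in building chondroitin sulfate chains on core proteins.

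On mm10 the 4 genes lie at chr1:72159442-72212307 on the minus strand (Mreg, ENSMUSG00000039395), chr2:181387762-181459426 on the minus strand (Zbtb46, ENSMUSG00000027583), chr1:151571186-151721939 on the plus strand (Fam129a, ENSMUSG00000026483) and chr5:24586741-24594556 on the plus strand (Chpf2, ENSMUSG00000038181). All are protein coding in GENCODE M21, which was used for names and positions. RefSeq promoters on GRCm38.p6 were found for all 4, each with 250 bases before and 50 bases from a start site, and are shown because the genes were picked for moving together. They were searched on both strands for the motifs of NF-kB (GGGNNNNNCC), AP-1 (TGANTCA), ATF4 with C/EBP (TGATGNAA) and the E-box (CACGTG). Also searched were the letters ACGTGGC and ACATGGC, taken as Golgi stress elements, with no binding factor assigned to either. Capitals mark every match, and the motifs were chosen after the values had been seen.
Mreg, chr1:72212258-72212557, minus strand: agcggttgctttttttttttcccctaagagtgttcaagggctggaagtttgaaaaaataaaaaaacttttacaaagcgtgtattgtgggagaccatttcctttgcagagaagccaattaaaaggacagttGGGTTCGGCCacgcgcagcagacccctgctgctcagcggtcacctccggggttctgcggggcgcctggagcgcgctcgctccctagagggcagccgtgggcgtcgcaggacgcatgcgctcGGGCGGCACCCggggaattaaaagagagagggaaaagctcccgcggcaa
Zbtb46, chr2:181424339-181424638, minus strand: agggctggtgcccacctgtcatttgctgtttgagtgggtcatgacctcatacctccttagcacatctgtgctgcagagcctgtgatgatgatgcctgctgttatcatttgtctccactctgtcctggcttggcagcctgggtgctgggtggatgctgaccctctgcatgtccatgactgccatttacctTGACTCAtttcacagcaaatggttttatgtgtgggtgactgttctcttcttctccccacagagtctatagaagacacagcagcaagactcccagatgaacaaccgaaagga
Fam129a, chr1:151571123-151571422, plus strand: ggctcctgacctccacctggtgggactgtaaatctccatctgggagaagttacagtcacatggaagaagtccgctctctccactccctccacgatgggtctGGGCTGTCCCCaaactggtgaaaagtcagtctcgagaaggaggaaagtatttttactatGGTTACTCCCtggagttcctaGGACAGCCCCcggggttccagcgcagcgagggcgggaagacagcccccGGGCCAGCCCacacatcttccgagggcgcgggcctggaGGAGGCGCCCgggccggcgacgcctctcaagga
Chpf2, chr5:24586494-24586793, plus strand: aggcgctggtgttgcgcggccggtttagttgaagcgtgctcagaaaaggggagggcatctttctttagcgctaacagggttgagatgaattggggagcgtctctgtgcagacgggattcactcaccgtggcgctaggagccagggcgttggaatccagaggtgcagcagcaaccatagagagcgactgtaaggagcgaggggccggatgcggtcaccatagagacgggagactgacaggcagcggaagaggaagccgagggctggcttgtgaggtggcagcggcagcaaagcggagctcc
The windows of Mreg, Fam129a and Chpf2 had 22, 16 and 20 CpG dinucleotides, against a median of 7 over all 32544 promoters of the table, and that of Zbtb46 had 1. The Zbtb46 window lies inside the gene, 35038 bases from its outermost annotated start, while the others lie within 187 bases of theirs. It belongs to a RefSeq entry that starts there and may not be a promoter. Whether transcription starts there in these cells was not tested.

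The only capitals in the Zbtb46 window are an AP-1 match at bases -61 to -55 from the start site, and 7.79% of all promoters held that motif. The NF-kB letters matched 3 times in the Mreg window and 6 times in the Fam129a window, counting overlapping matches of both strands. They occurred in 51.0% of all promoters. No searched motif was in the Chpf2 window, and the ATF4, E-box, ACGTGGC and ACATGGC letters, present in 3.91%, 7.17%, 2.59% and 3.80% of promoters, were in none of the 4. A match is a description of letters, and these windows hold no measurement of binding.

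Depth ranged from 34009988 to 56221174 counts per library. Levels are CPM (counts relative to the TMM-scaled library size), and 3 counts over a group corresponded to 0.0225 CPM in inhibitor, 0.0192 in stimulated and 0.0242 in unstimulated cells, a floor for counting error only. Inhibitor library 1 had counts in 30106 genes, against at most 23223 in the other 8 libraries, so the values of the 4 genes are also given without it. The summed level of 10 T cell genes was 2050 to 2135 CPM in inhibitor, 2001 to 2122 in stimulated and 1778 to 2772 in unstimulated libraries. In these bulk samples fewer cells of a type and less RNA per cell cannot be told apart. The libraries are labelled biological replicates, but whether each stands for its own animal is not said, and the spread behind each p-value may be partly technical.

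Mreg had 22.0, 19.1 and 27.3 CPM in inhibitor libraries 1 to 3, against 3.38, 3.24 and 3.00 CPM in stimulated and 2.40, 3.32 and 1.82 CPM in unstimulated libraries. The lowest inhibitor library stood 5.64-fold above the highest stimulated one, and the stimulated and unstimulated libraries overlapped. The means were 22.8 ± 4.16 CPM in inhibitor, 3.21 ± 0.195 in stimulated and 2.51 ± 0.754 in unstimulated cells (SD, n = 3 each). The fitted log2 difference was 2.83 for inhibitor against stimulated (7.10-fold), 3.18 for inhibitor against unstimulated (9.06-fold) and 0.35 for stimulated against unstimulated. Mreg thus had the largest fold of the 4 at the lowest level in CPM, resting on at least 810 counts in each inhibitor library and at least 90 in each of the others. The 7 pigment cell markers summed to 1.02 to 2.11 CPM in inhibitor, 1.73 to 2.42 in stimulated and 0.150 to 0.534 CPM in unstimulated libraries. Pmel, a structural protein of melanosomes, made up most of the sum in cultured cells, at 1.03 CPM in inhibitor, 2.14 in stimulated and 0.219 CPM in unstimulated cells. Tyrp1, an enzyme of melanin synthesis, had no count in any library, and Tyr and Dct had none in any stimulated or unstimulated library. In inhibitor libraries Tyr ranged from 0 to 0.0542 CPM and Dct from 0 to 0.325 CPM. The part of pigment cells in the Mreg level was not tested.

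Zbtb46 had 34.8, 40.5 and 42.7 CPM in inhibitor libraries, against 7.29, 7.70 and 7.39 CPM in stimulated and 9.64, 14.2 and 6.97 CPM in unstimulated libraries. Inhibitor libraries lay apart from all others, and the 3 stimulated values fell within the wider unstimulated range. The means were 39.3 ± 4.11 CPM in inhibitor, 7.46 ± 0.212 in stimulated and 10.3 ± 3.63 in unstimulated cells. The fitted log2 difference was 2.40 for inhibitor against stimulated (5.27-fold), 1.94 for inhibitor against unstimulated (3.84-fold) and -0.46 for stimulated against unstimulated. The fold over unstimulated cells was thus just under 4, and which side of it the value fell on turned on 1 library. The log2 difference was 2.03, 1.92 and 1.88 without inhibitor library 1, 2 and 3, and 1.90, 2.24 and 1.73 without unstimulated library 1, 2 and 3.

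Because Zbtb46 marks dendritic cells, the markers of that cell type were read beside it. The 12 dendritic cell markers summed to 12.2 to 24.3 CPM in inhibitor, 60.7 to 66.1 in stimulated and 190 to 222 CPM in unstimulated libraries, the reverse of the order of Zbtb46 between inhibitor and unstimulated cells. Clec9a, a receptor of cross-presenting dendritic cells, averaged 0.0317 CPM in inhibitor, was at 0 in stimulated and averaged 10.6 CPM in unstimulated cells, and Xcr1, Cd209a and Siglech were likewise at 0 in every stimulated library. Most of the stimulated sum was Batf3, a transcription factor also induced in T cells, at 5.04 CPM in inhibitor, 56.8 in stimulated and 2.24 in unstimulated cells. The dendritic cytokine receptor Flt3 was at 5.85 CPM in inhibitor, 0.669 in stimulated and 24.9 CPM in unstimulated cells. Endothelial markers summed to 2.26 to 6.78 CPM in inhibitor, 7.30 to 8.28 in stimulated and 15.7 to 26.4 CPM in unstimulated libraries. Egfl7 alone made up most of the stimulated endothelial sum, at 1.23 CPM in inhibitor, 6.63 in stimulated and 1.11 CPM in unstimulated cells. The order of inhibitor and stimulated sums thus rests on that gene. Cdh5, the endothelial cadherin, was at 0.0181 CPM in inhibitor, 0.0141 in stimulated and 3.80 CPM in unstimulated cells. Itgax, the integrin CD11c, averaged 1.81 CPM in inhibitor, 3.36 in stimulated and 73.4 CPM in unstimulated cells, and the chemokine receptor Ccr9 1.92, 0.243 and 54.2 CPM. Under 1 CPM in inhibitor cells were 7 of the 12 dendritic markers. In inhibitor cells 2 of the 12 were called higher and 1 lower than in stimulated cells (edgeR), beside 21.7% and 22.8% of all genes. Compared with unstimulated cells 1 was called higher and 9 lower, beside 26.3% and 26.1% of all genes. The part of these cell types in the Zbtb46 level was not tested.

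Unstimulated library 2, with the highest Zbtb46 of its group, also had the group's highest sums of dendritic (222 CPM), endothelial (26.4), monocyte and macrophage (1869) and B cell markers (606). The sum of NK cell markers was instead highest in library 3, at 380, 421 and 460 CPM in unstimulated libraries 1 to 3. Unstimulated libraries 2, 1 and 3 had 14.2, 9.64 and 6.97 CPM of Zbtb46 and 606, 317 and 134 CPM of B cell markers, and Mreg and Fam129a followed the same order of libraries while Chpf2 did not. The part of other cell types in the unstimulated values was not tested.

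Fam129a had 335, 369 and 378 CPM in inhibitor libraries, against 89.3, 88.7 and 70.9 CPM in stimulated and 84.5, 96.4 and 72.0 CPM in unstimulated libraries. It was the most abundant of the 4, and its stimulated and unstimulated values covered nearly the same range. The means were 361 ± 22.4 CPM in inhibitor, 83.0 ± 10.5 in stimulated and 84.3 ± 12.2 in unstimulated cells. The fitted log2 difference was 2.12 for inhibitor against stimulated (4.35-fold), 2.10 for inhibitor against unstimulated (4.28-fold) and -0.02 for stimulated against unstimulated, the closest to 0 of the 4 genes.

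Chpf2 had 109.7, 166 and 151 CPM in inhibitor libraries, against 29.1, 38.2 and 41.6 CPM in stimulated and 41.2, 43.1 and 48.6 CPM in unstimulated libraries. Inhibitor library 1 was the lowest of its group and still 2.26-fold above the highest unstimulated library. The means were 142 ± 29.1 CPM in inhibitor, 36.3 ± 6.47 in stimulated and 44.3 ± 3.83 in unstimulated cells. The fitted log2 difference was 1.97 for inhibitor against stimulated (3.92-fold), 1.68 for inhibitor against unstimulated (3.21-fold) and -0.29 for stimulated against unstimulated. Chpf2 had the smallest folds of the 4. Without inhibitor library 1 they were 2.12 and 1.84 on the log2 scale, against 2.85 and 3.21 for Mreg, 2.48 and 2.03 for Zbtb46 and 2.17 and 2.15 for Fam129a, each pair being inhibitor against stimulated and inhibitor against unstimulated.

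**Figure D1:**
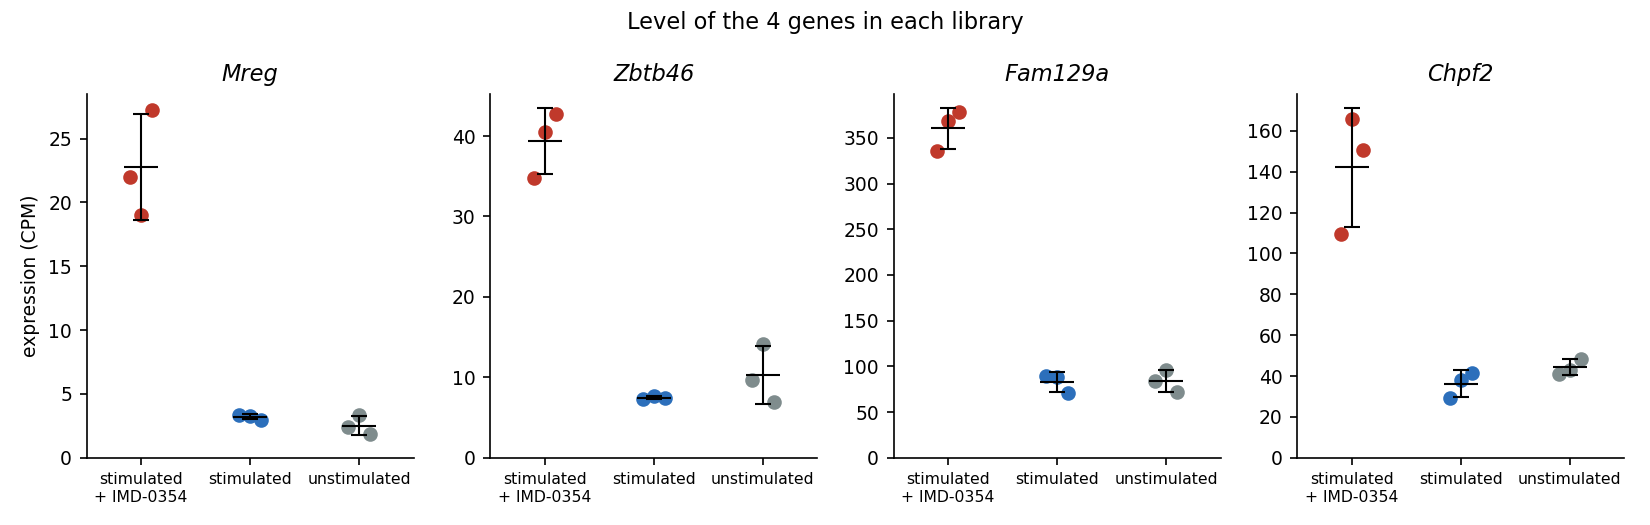
Level of each gene in CPM (vertical axes, linear from 0, with a different range for each gene) in the 9 libraries, which stand left to right as inhibitor, stimulated and unstimulated. Points are libraries 1 to 3 from left to right, long bars are means and whiskers are SD (n = 3 each). For all 4 genes the inhibitor points lie above every other point, and the stimulated and unstimulated points overlap.

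Chpf2 is the gene whose count is least certain. Smarcd3, a chromatin remodelling subunit on the opposite strand, shares 2466 of the 5588 exon bases of Chpf2, and the strand setting of the counting is not given. Its own counts were low, at 0.283 ± 0.216 CPM in inhibitor, 0.0411 ± 0.00283 in stimulated and 1.12 ± 0.179 CPM in unstimulated cells, and 2 to 53 counts in any library. The microRNA gene Mir671 lies inside a coding exon of Chpf2 at chr5:24592114-24592211 and had 0 counts in every library.

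Set per kilobase of exon, Fam129a averaged 48.9, Chpf2 25.4, Mreg 9.96 and Zbtb46 4.62 CPM per kb in inhibitor cells, with no overlap between neighbours in that order. In stimulated cells the order was the same, at 11.2, 6.49, 1.40 and 0.877 CPM per kb, again without overlap. In unstimulated cells Fam129a was at 11.4 and Chpf2 at 7.93 CPM per kb, while Zbtb46 at 1.21 and Mreg at 1.10 overlapped. The divisor for Chpf2 was all 5588 exon bases, including the 2466 shared with Smarcd3. Reads there may not have been counted if strand was ignored, so the place of Chpf2 beside Fam129a is uncertain in all groups.

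Across all genes tested with the quasi-likelihood test of edgeR at an adjusted p of 0.05, 21.7% were called higher and 22.8% lower in inhibitor than in stimulated cells, 44.5% in either direction. For inhibitor against unstimulated cells 26.3% were called higher and 26.1% lower, 52.4% in all. For stimulated against unstimulated cells 32.0% were called higher and 34.0% lower, 66.0% in all. These shares are the background of the counts given for the other genes, and nothing is read from them for the 4 genes themselves, which were chosen on these contrasts. The median log2 difference of all genes was 0.03, -0.00 and -0.05 in the 3 comparisons. With the rule written as at least 4-fold over both other groups and less than 2-fold between stimulated and unstimulated cells, 51 genes met it, among them Mreg and Fam129a. Zbtb46 stood just outside and Chpf2 further out, at 3.92-fold over stimulated and 3.21-fold over unstimulated cells. A limit of 3-fold took in 85 genes and all 4. Just inside the 4-fold limit, by the smaller of their log2 differences and at 10 CPM or more, were Gpr107 at 2.01 and Ccr7 at 2.02, and just outside were Zbtb46 at 1.94 and Gbp2 at 1.85.

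**Figure D2:**
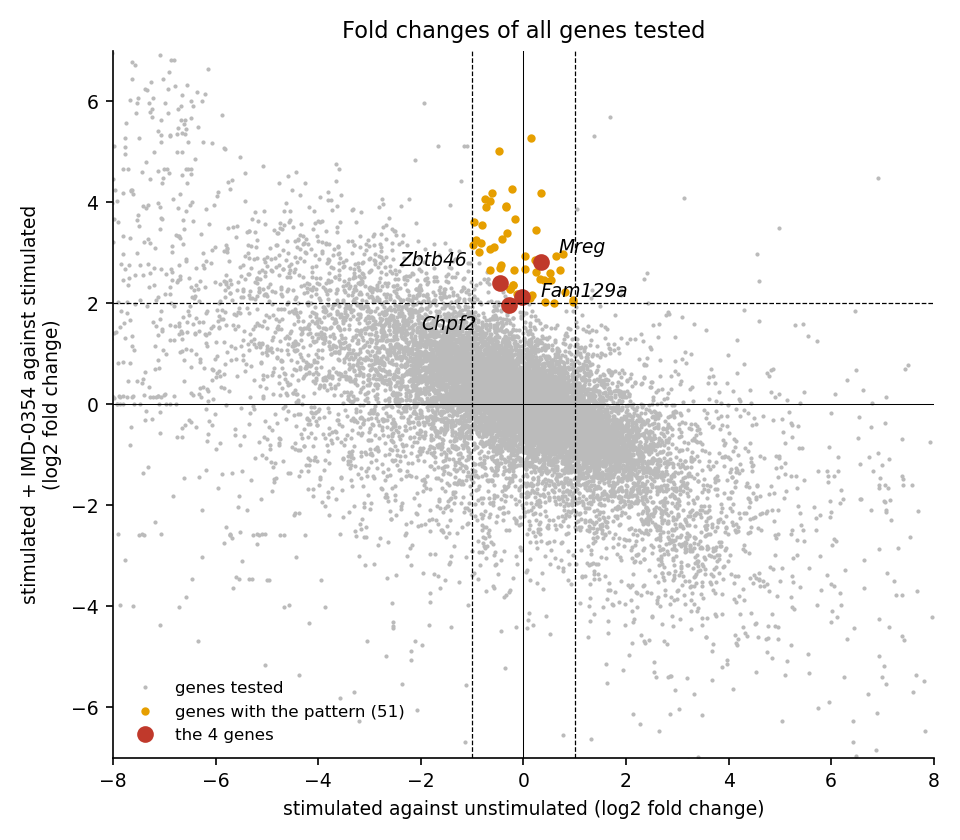
Log2 fold change of inhibitor against stimulated cells (vertical axis) over that of stimulated against unstimulated cells (horizontal axis) for 18013 of the 18374 genes tested. The other 361 lie outside the axes, and dashed lines mark 4-fold on the vertical and 2-fold on the horizontal axis. Both axes contain the stimulated libraries, so their slope is not read. Mreg, Zbtb46, Fam129a and Chpf2 (red) sit near 0 on the horizontal axis and at 1.97 to 2.83 on the vertical one, beside or among the 51 genes that met the written rule (orange).

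Of the 51 genes 38 were protein coding and 15 had at least 10 CPM in inhibitor cells. A gene could pass the filter on low counts through its inhibitor libraries alone. By inhibitor level Fam129a was second and Mreg eighth among them. Ccr7, the homing receptor of naive and central memory T cells, was highest at 1006 ± 137 CPM in inhibitor, 206 ± 33.1 in stimulated and 248 ± 66.2 CPM in unstimulated cells. The chemokines Ccl3 (251.5, 13.8 and 21.0 CPM), Xcl1 (128, 8.54 and 14.2) and Ccl4 (125.5, 10.7 and 18.8) also met the rule, in the same order of groups, as did the interferon-inducible GTPase Iigp1 (20.4, 3.00 and 4.06). These values chose the genes and carry no test.

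The profiles most like each of the 4 were sought by the root mean square difference of centred log2 CPM over the 9 libraries, among 13119 genes. Chpf2 was closest to Creb3, a transcription factor of the endoplasmic reticulum membrane known from the Golgi stress response, at a difference of 0.164. Yipf2, a membrane protein of the Golgi, followed at 0.192, and Gpr107, a membrane protein of the Golgi and of retrograde transport, at 0.212. The median over all genes was 0.991. Creb3 averaged 73.3 ± 9.67 CPM in inhibitor, 16.5 ± 0.756 in stimulated and 21.2 ± 0.601 CPM in unstimulated cells. Yipf2 averaged 34.6, 9.28 and 13.5 CPM and Gpr107 254, 52.3 and 63.0 CPM in the same groups, each with a higher inhibitor level as in Chpf2.

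Fam129a was closest to Ggcx, the gamma-glutamyl carboxylase of the endoplasmic reticulum, at 0.161, then to the kinase gene Ick at 0.203 and Gpr107 at 0.206, against a median of 1.10. Ggcx averaged 17.8 CPM in inhibitor, 3.47 in stimulated and 3.99 CPM in unstimulated cells, and Ick 54.8, 15.6 and 15.0 CPM. Zbtb46 was closest to the potassium channel gene Kcnk6 at 0.223, then to Fam129a and Ggcx, both at 0.231, against a median of 1.16. Mreg stood further from its neighbours, Synpo, an actin-associated protein, at 0.274, Gm31718 at 0.403 and the calcium channel subunit Cacnb3 at 0.412, against a median of 1.49. Among the 4 themselves Zbtb46 and Fam129a were the most alike pair (0.231) and Mreg and Chpf2 the least alike (0.716).

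**Figure D3:**
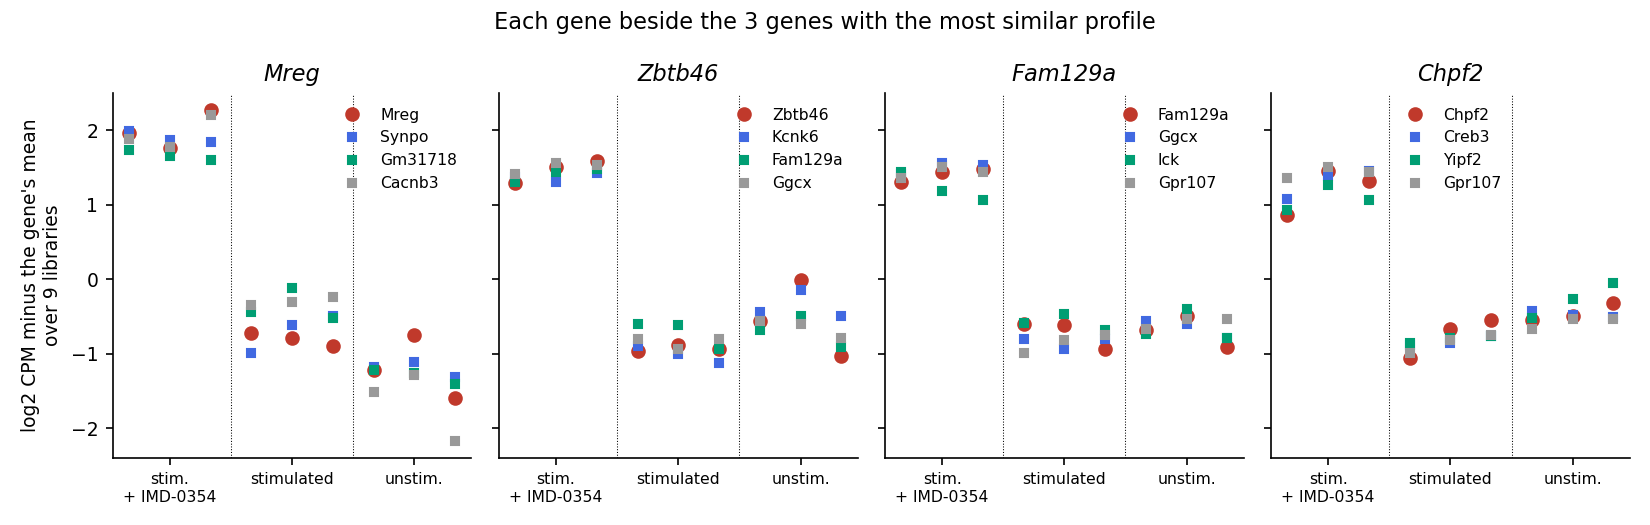
Log2 CPM of each of the 4 genes (red circles) and of its 3 nearest genes (squares), each minus its own mean over the 9 libraries (vertical axes), with libraries 1 to 3 of the inhibitor, stimulated and unstimulated groups from left to right. The nearest genes were picked for this likeness. The Mreg panel shows the widest scatter in unstimulated libraries, and the root mean square differences run from 0.161 to 0.412.

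The genes next to the 4 were not used to choose them and could be tested. Of 16 flanking genes, the 2 nearest that passed the filter on each side, 7 were higher and 4 lower in inhibitor than in stimulated cells by the edgeR quasi-likelihood test, against 21.7% and 22.8% of all genes. None was 4-fold higher, their log2 changes ran from -2.44 to 0.96, and their median was 0.22, against 0.03 over all genes. For inhibitor against unstimulated cells 7 were higher and 6 lower (median 0.24), beside 26.3% and 26.1% of all genes. For stimulated against unstimulated cells 6 were higher and 8 lower (median -0.14), beside 32.0% and 34.0% of all genes.

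Around Mreg, Fn1, encoding fibronectin and 506 kb away, fell by 2.44 on the log2 scale in inhibitor against stimulated cells (edgeR adjusted p = 0.0012). Its level was 1.11 ± 0.363 CPM in inhibitor, 6.06 ± 0.614 in stimulated and 338 ± 171 CPM in unstimulated cells. With limma voom Fn1 was not called (adjusted p = 0.118), the highest of 17 alternatives, whose lowest adjusted p was 9.1e-23. Pecr, a peroxisomal reductase 46.9 kb from Mreg, fell by 1.19 (edgeR adjusted p = 5.4e-04). Atic, an enzyme of purine synthesis 580 kb from Mreg, fell by 0.56 (edgeR adjusted p = 2.9e-04). The genes next to Mreg that were called thus fell, and Xrcc5, a DNA repair subunit, had a log2 change of 0.06 (edgeR adjusted p = 0.659). Around Zbtb46, the pseudogene Slc2a4rg-ps, 0.176 kb away, rose by 0.71 (edgeR adjusted p = 0.0034). Lime1 rose by 0.96 (edgeR adjusted p = 0.033) and Tpd52l2 by 0.31 (edgeR adjusted p = 0.021), while Dnajc5 had a log2 change of -0.05. The call of Lime1 was lost without inhibitor library 1 (0.88) or 2 (0.89) or stimulated library 1 (1.00) or 2 (0.75) and with the replicate block (0.97, edgeR adjusted p = 0.059). That of Tpd52l2 was lost without inhibitor library 2 (0.23) or stimulated library 1 (0.32), 2 (0.27) or 3 (0.33).

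Around Fam129a, Gm36527 rose by 0.90 (edgeR adjusted p = 8.0e-04), Rnf2, a Polycomb ubiquitin ligase, by 0.50 (edgeR adjusted p = 0.018) and Edem3, a mannosidase of the endoplasmic reticulum, by 0.39 (edgeR adjusted p = 0.0021). Gm36527 lies within the span of Rnf2 on the same strand, so their counts may not be separate. The call of Rnf2 was lost without inhibitor library 1 (0.40) or stimulated library 2 (0.43) or 3 (0.43). Around Chpf2, Agap3 rose by 0.42 (edgeR adjusted p = 0.0032) and Abcf2, 9.27 kb away, fell by 0.41 (edgeR adjusted p = 0.0059). Nub1 and Gm26648 were not called, and Gm26648 was near the counting floor.

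**Figure D4:**
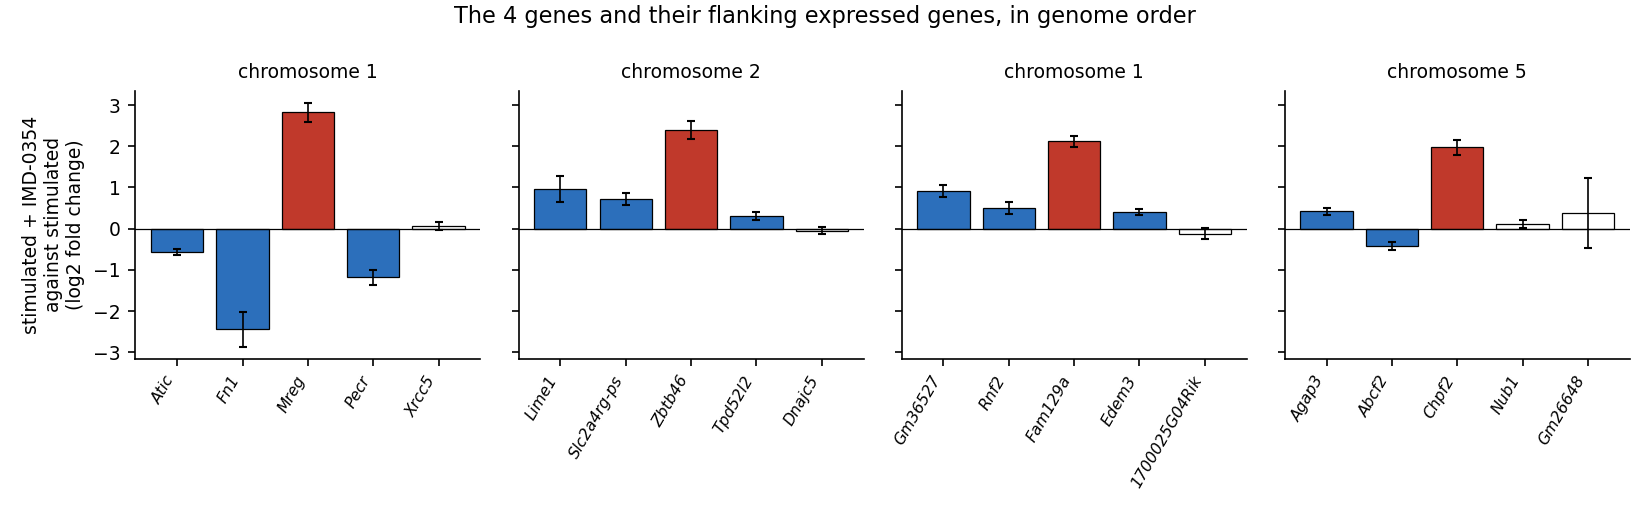
Log2 fold change of inhibitor against stimulated cells (vertical axes) for each of the 4 genes (red) and the 2 nearest tested genes on either side, in genome order. Blue bars passed an edgeR adjusted p of 0.05, open bars did not, red bars carry no test, and whiskers are the approximate SE of the fit over 9 libraries. No flanking gene reaches the height of the gene it surrounds, and the flanking values run from -2.44 to 0.96.

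Related genes were read from 6 lists, with Mreg, Zbtb46, Fam129a and Chpf2 left out of the counts. Of 19 genes of chondroitin sulfate chain synthesis that passed the filter, 5 rose and 4 fell in inhibitor against stimulated cells. Over all genes 21.7% rose and 22.8% fell. The median log2 change of the list was -0.05, against 0.03 over all genes. Chpf, the paralogue of Chpf2, did not pass the test, at 47.3 ± 8.14 CPM in inhibitor, 44.3 ± 4.07 in stimulated and 26.3 ± 7.12 CPM in unstimulated cells (log2 change 0.10, edgeR adjusted p = 0.717 for inhibitor against stimulated). Xylt1, which starts the chain, rose by 1.08 (edgeR adjusted p = 2.6e-04) and the sulfotransferase Chst15 by 1.01 (edgeR adjusted p = 7.0e-05). Another sulfotransferase, Chst11, fell by 1.16 (edgeR adjusted p = 6.5e-04), and the polymerase Chsy1 fell by 0.78 (edgeR adjusted p = 7.7e-05). Csgalnact2, which adds the first chondroitin sugar, rose by 0.89 (edgeR adjusted p = 6.8e-04) and Chst14, a dermatan sulfotransferase, fell by 0.88 (edgeR adjusted p = 0.0045). Chain synthesis genes were thus called in both directions, in numbers near the shares over all genes. Against unstimulated cells 2 of the 19 rose and 11 fell in inhibitor cells (median -0.56), beside 26.3% and 26.1% of all genes. In stimulated cells 6 rose and 9 fell (median -0.51), beside 32.0% and 34.0% of all genes. With upper-quartile scaling 2 rose and 11 fell in stimulated cells, and 3 rose without stimulated library 2.

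Of 6 core proteins that carry such chains, 2 rose and 3 fell in inhibitor against stimulated cells, beside 21.7% and 22.8% of all genes. Sdc1, syndecan-1, fell by 4.13 (edgeR adjusted p = 5.1e-06) Srgn, the granule proteoglycan serglycin, fell by 0.82 and syndecan-4, Sdc4, fell by 0.78 (edgeR adjusted p = 0.012), while Cd74, the invariant chain, rose by 1.41 and Cd44 by 0.68. Cd74 is also expressed by B cells, whose 9 markers summed to 27.8 to 28.7 CPM in inhibitor, 23.1 to 24.6 in stimulated and 134 to 606 CPM in unstimulated libraries. The part of B cells in the Cd74 change was not tested.

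Of 28 genes of melanosome and lysosome positioning, 10 rose and 3 fell in inhibitor against stimulated cells (median 0.26), beside 21.7% and 22.8% of all genes. With upper-quartile scaling 16 rose and 1 fell, and without stimulated library 3 the number that fell was 1. Map1lc3b, encoding the autophagosome protein LC3B, rose by 0.96 (edgeR adjusted p = 2.9e-05) and the lysosomal membrane gene Lamp1 by 0.89 (edgeR adjusted p = 1.4e-04). The lysosomal regulators Tfe3 and Mitf rose by 0.84 and 0.76, and Hps3, a subunit of the BLOC-2 complex of lysosome-related organelles, by 0.66 (edgeR adjusted p = 1.2e-04), while Rab27a, a GTPase of granule transport, fell by 0.62. None was 4-fold higher. Map1lc3b and Mitf, unlike Mreg, were highest in unstimulated cells, at 49.2 CPM in inhibitor, 25.2 in stimulated and 134 CPM in unstimulated cells for Map1lc3b. Against unstimulated cells 4 rose and 11 fell in inhibitor cells, beside 26.3% and 26.1% of all genes. In stimulated cells 4 rose and 14 fell, beside 32.0% and 34.0% of all genes, or 2 and 19 with upper-quartile scaling.

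The Niban paralogues were lower in level than Fam129a. Fam129b did not pass the test, at 9.41 ± 2.27 CPM in inhibitor, 7.52 ± 1.20 in stimulated and 9.17 ± 3.77 CPM in unstimulated cells (log2 change 0.32 for inhibitor against stimulated, edgeR adjusted p = 0.421). Fam129c, a B cell gene, was at 5.26 ± 1.71 CPM in inhibitor, 2.62 ± 0.437 in stimulated and 16.1 ± 9.46 CPM in unstimulated cells, with a log2 change of 1.00 for inhibitor against stimulated (edgeR adjusted p = 0.086). Fam129c was called in 5 of 16 alternatives (adjusted p = 0.0020 to 0.267), among them those without unstimulated library 2 (1.00) or 3 (1.00).

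Because human Niban is induced through ATF4, genes of the integrated stress response were read beside Fam129a. Of 23 that passed the filter, 1 rose and 13 fell in inhibitor against stimulated cells (median -0.46), beside 21.7% and 22.8% of all genes. For inhibitor against unstimulated cells 17 rose and 3 fell (median 2.44), beside 26.3% and 26.1% of all genes. For stimulated against unstimulated cells 20 rose and 2 fell (median 2.95), beside 32.0% and 34.0% of all genes. Fam129a itself had a log2 difference of 2.12, 2.10 and -0.02 in these comparisons. Atf4 averaged 402 ± 7.30 CPM in inhibitor, 553 ± 15.2 in stimulated and 168 ± 23.2 CPM in unstimulated cells, and fell by 0.46 in inhibitor against stimulated cells (edgeR adjusted p = 0.0031). Vldlr, the receptor of very low density lipoprotein, fell by 3.70 (edgeR adjusted p = 9.0e-05), at 2.94 CPM in inhibitor, 38.3 in stimulated and 0.194 CPM in unstimulated cells. Ddit4, a stress-induced inhibitor of mTORC1, fell by 3.03 (edgeR adjusted p = 2.3e-06) and Atf3 by 1.86. Psat1, an enzyme of serine synthesis, fell by 1.20 (edgeR adjusted p = 2.9e-05), and the low-level stress gene Nupr1 fell by 1.85 (edgeR adjusted p = 0.015), at 0.628 CPM in inhibitor, 2.28 in stimulated and 0.887 CPM in unstimulated cells. The asparagine synthetase gene Asns fell by 1.18 (edgeR adjusted p = 0.0496), a call lost without any 1 of the 6 inhibitor and stimulated libraries (-1.23 to -1.14) and with the replicate block (-1.17, edgeR adjusted p = 0.052). The exception was Ppp1r15a, a phosphatase subunit that reverses eIF2-alpha phosphorylation, which rose by 1.15 (edgeR adjusted p = 2.5e-04), at 47.5 CPM in inhibitor, 21.4 in stimulated and 172 CPM in unstimulated cells. Without inhibitor library 1, with upper-quartile scaling or in a fit of only the 6 libraries compared, 2 genes of the list rose.

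Of 39 other BTB zinc finger genes, 23 rose and 5 fell in inhibitor against stimulated cells (median 0.39), against 21.7% and 22.8% of all genes. Without stimulated library 2 the number that rose was 15. In inhibitor against unstimulated cells 9 rose and 9 fell (median -0.02), beside 26.3% and 26.1% of all genes. In stimulated against unstimulated cells 8 rose and 21 fell (median -0.28), beside 32.0% and 34.0% of all genes. Zbtb10, a repressor, rose by 3.18 (edgeR adjusted p = 6.8e-07), at 86.7 ± 7.39 CPM in inhibitor, 9.60 ± 1.93 in stimulated and 32.0 ± 2.03 CPM in unstimulated cells. Bcl6, the repressor of follicular helper T cells, rose by 2.78 and Zbtb20 by 2.17, at 15.7 and 119 CPM in inhibitor, 2.30 and 26.5 in stimulated and 53.2 and 283 CPM in unstimulated cells. These 3 were the list's members at least 4-fold higher, and each fell in stimulated against unstimulated cells, a comparison in which the Zbtb46 libraries overlapped. Hic1 fell by 3.60, Zbtb32 by 1.96 and Zbtb16, encoding PLZF of innate-like T cells, by 1.90.

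**Figure D5:**
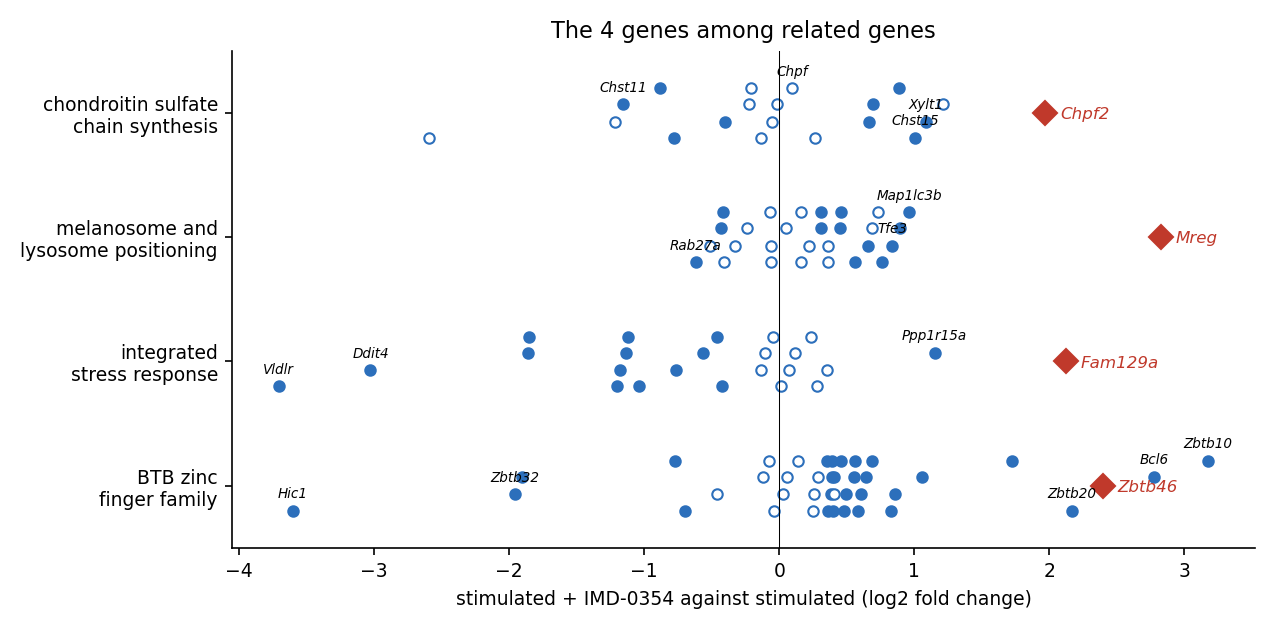
Log2 fold change of inhibitor against stimulated cells (horizontal axis) for the genes of 4 lists (rows), with Chpf2, Mreg, Fam129a and Zbtb46 as red diamonds in the list each belongs to. Filled circles passed an edgeR adjusted p of 0.05, open circles did not, and vertical position within a row has no meaning. Chpf2, Mreg and Fam129a lie to the right of every other gene of their lists, a result of how they were chosen, while Zbtb10 and Bcl6 lie beyond Zbtb46.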

How the data were processed

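Gene-level reads of total RNA libraries (a stranded kit that depletes ribosomal RNA, per the labels' protocols) were deposited by the authors as whole-number counts, with no normalization. STAR 2.7.1a, featureCounts and mm10 are named in the submitters' processing notes. Which annotation release, strand setting and mate counting were used is not given in the sources used here. Between 70.6% and 78.5% of counts from 1 to 10 were even, so fragments may have been counted as 2 reads.

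Castaneus reads compared with a C57BL/6 reference can lower counts. Of the 49671 identifiers 49412 were named in GENCODE M21. The members, lists and motifs were chosen with earlier results of these data known. No 2 libraries of a group agreed within sampling noise (chi-square over degrees of freedom 32.7 to 132), so none was treated as a repeat of another. That does not show that they came from separate animals. Deviations from the group means correlated at 0.14 to 0.15 between inhibitor and stimulated libraries of the same number, and at -0.09 to -0.04 between those of other numbers, over 13119 genes. Inhibitor and unstimulated libraries of other numbers reached like values, at 0.05 to 0.19. Deviations from a group mean cancel within the group, so the values of same and other numbers depend on each other and are not separate evidence. These correlations do not settle whether the numbers pair libraries, and the labels do not state a pairing. Same-numbered libraries correlated at -0.31 to -0.26 for inhibitor and unstimulated cells and at -0.06 to -0.00 for stimulated and unstimulated cells. The replicate block was fitted on all 9 libraries.

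Genes were kept with filterByExpr and scaled by TMM in edgeR 4.0.16 (R 4.3.3). All 9 libraries entered a quasi-likelihood fit with the group as its only term (6 residual degrees of freedom, two-sided, Benjamini-Hochberg over 18374 genes, threshold 0.05). "Rose" and "fell" are used for genes past it. The approximate SE is the log2 change over the square root of F, not a fitted SE. Log2 CPM used a prior count of 2. Alternatives used limma 3.58.1 and DESeq2 1.42.0. The procedure was tried on simulated counts in which few genes changed, and only in the inhibitor group. Scaling and false calls under changes as broad as those in the data were not tested.

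Named were the 4 genes, the 3 nearest profiles of each (mean log2 CPM of at least 0), the 10 most abundant genes that met the written rule, the flanking genes, up to 6 called genes of each list with the largest change, and paralogues. Atf4, Ppp1r15a and the markers named were singled out after their values were seen. Promoters came from the RefSeq entry nearest the GENCODE start.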

Additional observations from a re-analysis of the deposited data

How the results depend on the processing

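The alternatives were upper-quartile or RLE scaling, DESeq2, limma voom, no filter on low counts, a mean of at least 10 CPM, only the 6 libraries compared, the replicate block and leaving out each library. Across them the log2 difference of inhibitor against stimulated cells ran from 2.67 to 2.96 for Mreg, 2.33 to 2.53 for Zbtb46, 2.01 to 2.25 for Fam129a and 1.83 to 2.12 for Chpf2. Over unstimulated cells it ran from 2.99 to 3.43, 1.73 to 2.24, 1.95 to 2.20 and 1.53 to 1.84 in that order of genes. Upper-quartile scaling moved the median of all genes to 0.16 (inhibitor against stimulated), -0.09 (inhibitor against unstimulated) and -0.27 (stimulated against unstimulated), Zbtb46 to 2.53 in the first comparison, and Fam129a and Chpf2 to -0.24 and -0.51 in the third. At a mean of at least 10 CPM, where fewer genes are tested, 2947 were higher and 2920 lower in inhibitor than in unstimulated cells and 3463 higher and 3488 lower in stimulated than in unstimulated cells. The written rule was then met by 4 genes, by 5741 with no filter and by 27 with only the libraries compared, against 51, and the cause was not tested for the last 2. With only the libraries compared, a gene had to pass the filter in every separate fit, including the fit without inhibitor libraries. The number of genes that met the rule was 52 to 69 with a library left out. No direction of the results tested was reversed. Of 802 alternative values of flanking genes, 22 lost and 2 gained a call. With the replicate block 3642 genes were higher and 3940 lower in inhibitor than in stimulated cells, against 3990 and 4192 without it. The block ended the calls of Lime1 and Asns in that comparison and of Nupr1 in stimulated against unstimulated cells (adjusted p = 0.057), and no other call of the flanking and list genes named. At a mean of at least 10 CPM there were 2 chain synthesis, 2 melanosome and lysosome and 4 BTB genes higher in stimulated than in unstimulated cells, 1 chain synthesis gene higher in inhibitor than in unstimulated cells and 3 BTB genes lower in inhibitor than in stimulated cells, and 2 stress response genes higher. Depth limits the low genes most: Mreg had as few as 90 counts in a library.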
